A study of Mus musculus with 7 samples.

Results

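The enzymes that carry butyrate into acetyl-CoA and that make or use ketone bodies were followed in mouse RNA libraries that carry the label CD8+ T cells. The 9 genes, Acads, Acsm3, Acsm5, Hadh, Echs1, Acat1, Oxct1, Bdh1 and Bdh2, were taken by symbol. All 9 were found among the 56422 symbols of the table, and 7 of the 9 passed the filter on low values that left 14967 genes for testing. Per the labels, the cells were taken from the ascites of mice with a model of metastasis in the peritoneum. There were 4 control libraries, with no treatment, and 3 libraries treated with propionate and butyrate together, both short-chain fatty acids, in a series whose title concerns mannose, anti-PD-1 therapy and ovarian cancer. Strain, age, tumour line, dose and treatment time are not given in the sources used here. Nothing says whether the libraries are from separate animals. The p-values reflect the spread among these libraries only, which may be technical.

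Butyrate is a short-chain fatty acid made by gut bacteria. Inside mitochondria an acyl-CoA synthetase of the ACSM family joins it to coenzyme A, and the product passes through a dehydrogenase (Acads), a hydratase (Echs1), a second dehydrogenase (Hadh) and a thiolase (Acat1) to yield acetyl-CoA. Ketone bodies enter the same end of the route. Bdh1 interconverts 3-hydroxybutyrate and acetoacetate, and Oxct1 activates acetoacetate with coenzyme A from succinyl-CoA. T cells can burn both fuels, and butyrate also acts on them outside metabolism as a histone deacetylase inhibitor.

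Expression was given in TPM, a unit corrected for transcript length and set to 1 common total for all libraries. Depth cannot be read from it. The third treated library, whose column carries a number that no treated sample has, stood apart. Mitochondrially encoded genes took up 32.87% of TPM there and 13.57% to 18.23% elsewhere. Another 20.22% lay on 6 pseudogenes of mitochondrial type, picked with their values known, against 8.515% to 11.09% in the other 6 libraries. All other genes share what is left, and scaling each library to TPM outside these sequences multiplied values by 2.146 in the third treated library and by 1.291 to 1.423 in the other 6. Values on this rescaled basis, an alternative added after the data were seen, are given beside the deposited ones for the tested enzymes, for Acsm3 and for most other genes named. The CD8 label could be set against its markers. Cd8a, a chain of the CD8 coreceptor, read 7.95 to 17.98 TPM in control and 54.25 to 242.23 TPM in treated libraries. T cell identity markers summed to 139.2 to 242.4 TPM in control and 676.8 to 2870 TPM in treated libraries, with 14 of 14 called higher by limma at a Benjamini-Hochberg adjusted p under 0.05. Markers of tumour epithelium and mesothelium summed to 2234 to 2755 TPM in control and 844.3 to 1590 TPM in treated libraries, with 8 of 10 tested called lower, and macrophage markers to 6186 to 14890 and 3373 to 4097 TPM, with 2 of 12 called lower. After rescaling, macrophage marker sums overlapped, at 8336 to 19220 TPM in control and 4530 to 8791 TPM in treated libraries. T cell marker sums, at 179.6 to 343.9 and 1452 to 3854 TPM, and those of epithelium and mesothelium, at 3007 to 3668 and 1356 to 2204 TPM, did not. In bulk samples such as these, fewer cells of a type and less RNA per cell cannot be told apart, and the part of cell composition in the results on the enzymes was not tested.

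The order of the 9 enzymes by TPM was the same in all 7 libraries. Echs1 was highest, followed by Hadh, Oxct1, Acads, Acat1, Bdh1, Bdh2, Acsm3 and Acsm5. In control libraries the means were 121.6 ± 11.5 TPM for Echs1, 101.9 ± 8.03 for Hadh and 86.1 ± 7.33 for Oxct1 (SD, n = 4 each). The control ranges of Echs1 and Hadh overlapped, as did those of Hadh and Oxct1, although the order held within each of the 7 libraries. Acads followed at 38.8 ± 4.84 TPM and Acat1 at 23.7 ± 1.41 TPM, then Bdh1 at 3.65 ± 0.321 TPM and Bdh2 at 1.89 ± 0.408 TPM (SD, n = 4 each), and the control ranges of neighbours from Oxct1 to Bdh2 did not overlap. Among the tested genes of a library, Echs1 stood at the 91.3rd to 93.76th percentile, Acat1 at the 63.78th to 67.21st and Bdh1 at the 20.61st to 38.06th. Both 3-hydroxybutyrate dehydrogenases were therefore low beside the chain from butyryl-CoA to acetyl-CoA and beside Oxct1.

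**Figure D1:**
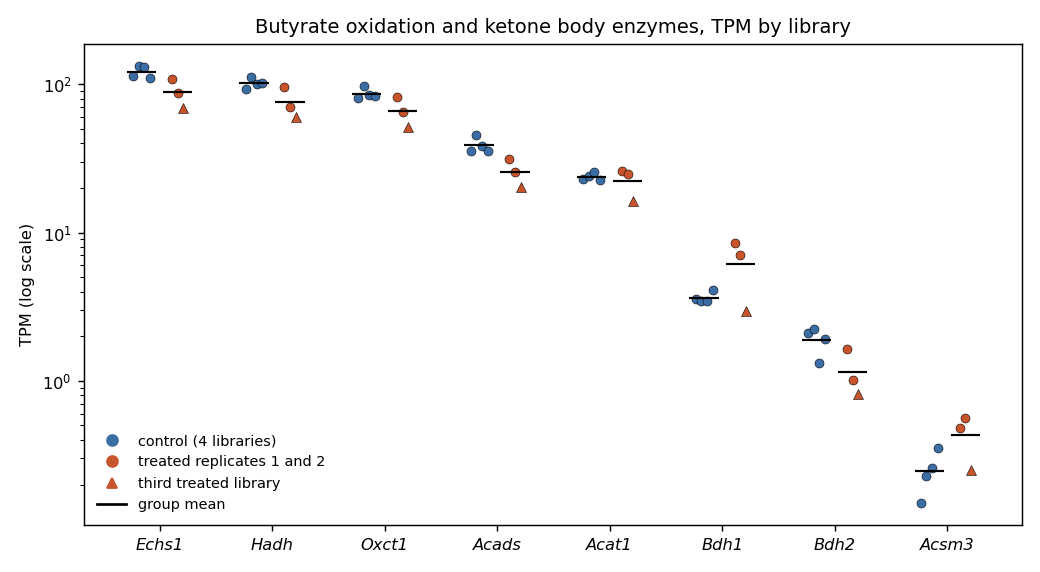
TPM of each enzyme in each library on a log axis, with control libraries in blue, treated libraries in orange, the third treated library as a triangle and group means as bars. Acsm5 was listed at 0 in all 7 libraries and is not drawn; Bdh1 is the only tested enzyme whose treated mean, 6.17 TPM, lies above its control mean, 3.65 TPM.

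With TPM as deposited, 0 of the 7 tested enzymes were called higher and 0 were called lower by limma with Benjamini-Hochberg adjustment at an adjusted p under 0.05. Over all genes tested 4.3% were called higher (643) and 7.59% lower (1136), so that 36.1% of the calls were upwards. That share was 50.4% after rescaling, 57.7% with median-of-ratios scaling and 63.7% with TMM scaling. At an unadjusted p under 0.05 there were 3 enzymes, Acads, Echs1 and Hadh, all with lower treated means, against 30.5% of all genes in either direction. The median log2 fold change was -0.43 over the 7 enzymes and -0.24 over all genes tested, and 6 of 7 enzymes lay below 0, as did 73.4% of all genes. After rescaling the medians were -0.24 and -0.05, and 5 of 7 enzymes lay below 0. On that basis 1 enzyme was called higher, with 8.09% of all genes, and 0 lower, with 7.98%. Fold changes are on the scale of log2(TPM + 1), treated minus control, and understate the change of low genes.

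The first dehydrogenase of the route, Acads, acts on butyryl-CoA. It read 35.7, 45.8, 38.2 and 35.4 TPM in control replicates 1 to 4 and 31.5, 25.5 and 20.1 TPM in treated replicates 1 and 2 and the third treated library. Every treated library was below every control library, which held for 25.7% of all genes tested. On the log2 scale the difference was -0.59 (SE 0.20), the furthest below 0 among the 7 enzymes, with a limma Benjamini-Hochberg adjusted p of 0.0734. After rescaling, Acads read 49.3 to 61.0 TPM in control and 34.3 to 43.7 TPM in treated libraries, again without overlap (18.8% of all genes on that basis). The rescaled log2 fold change was -0.38 (SE 0.12, limma Benjamini-Hochberg adjusted p = 0.0651). Acads was called lower in 3 alternatives, each given with its limma Benjamini-Hochberg adjusted p. They left out treated replicate 1 (-0.74, adjusted p = 0.0267), used array weights (-0.48, adjusted p = 0.00576) or removed only the mitochondrially encoded genes before rescaling (-0.49, adjusted p = 0.0372). In the same order, these alternatives called 2910, 4221 and 1872 genes lower, of 14967, 14967 and 15487 tested. The count was 1136 of 14967 with TPM as deposited and all libraries weighted alike.

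Echs1, the enoyl-CoA hydratase of the next step, read 113.8, 132.9, 129.99 and 109.8 TPM in control replicates 1 to 4 and 108.6, 87.2 and 68.7 TPM in the treated libraries. Every treated library was below every control library, as for 25.7% of all genes tested, but control replicate 4 and treated replicate 1 were close. Treated minus control was -0.48 on the log2 scale (SE 0.20, limma Benjamini-Hochberg adjusted p = 0.126), and -0.27 (SE 0.10, adjusted p = 0.119) after rescaling. The rescaled treated libraries were again all below the control libraries, as for 18.8% of all genes on that basis. The 3 genes whose values over the 7 libraries were most like those of Echs1 were Mcfd2, Copz1 and Aldh4a1. Their centred log2(TPM + 1) values differed from those of Echs1 by a root mean square of 0.0213, 0.033 and 0.0349.

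Hadh, the 3-hydroxyacyl-CoA dehydrogenase of short and medium chains, read 93.0, 112.4, 99.96 and 102.2 TPM in control replicates 1 to 4. The treated libraries read 95.7, 69.9 and 60.5 TPM, and treated replicate 1 lay inside the control range. Hadh had a log2 fold change of -0.45 (SE 0.20, limma Benjamini-Hochberg adjusted p = 0.142), and -0.24 (SE 0.13, adjusted p = 0.238) after rescaling. Treated replicate 2 was the lowest library for Hadh after rescaling, at 93.8 TPM against 129.0 to 149.6 TPM in control libraries, while the third treated library was at 129.8 TPM.

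Oxct1 lets tissues outside the liver use acetoacetate. It read 80.3, 96.8, 84.3 and 83.0 TPM in control replicates 1 to 4 and 82.2, 65.2 and 51.0 TPM in the treated libraries. The groups overlapped through treated replicate 1. Oxct1 had a log2 fold change of -0.40 (SE 0.20, limma Benjamini-Hochberg adjusted p = 0.194), and -0.18 (SE 0.11, adjusted p = 0.278) after rescaling. Among all pairs of the 7 tested enzymes, Oxct1 and Hadh had the closest profiles as deposited. Their root mean square difference in centred log2(TPM + 1) was 0.056. Mcfd2, a gene outside these lists, came closer to Echs1, at 0.0213, and pairs of genes at large were not compared. The ratio of Oxct1 to Hadh, which no scaling of a library can move, was 0.81 to 0.86 in control and 0.84 to 0.93 in treated libraries.

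Without treated replicate 1, Hadh, Echs1 and Oxct1 were called lower together with Acads, at -0.64, -0.64 and -0.57 (limma Benjamini-Hochberg adjusted p = 0.0278, 0.0347 and 0.0472). With array weights, which give less weight to libraries that deviate, Hadh stood at -0.45, Echs1 at -0.39 and Oxct1 at -0.32 (limma Benjamini-Hochberg adjusted p = 0.00823, 0.0143 and 0.0245), all called lower. Those fits called 2910 and 4221 genes lower over the whole table, against 1136 with all libraries weighted alike.

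Acat1, the mitochondrial thiolase that splits acetoacetyl-CoA and so serves both butyrate and ketone bodies, differed least. It read 22.9, 24.0, 25.6 and 22.4 TPM in control replicates 1 to 4 and 25.8, 24.9 and 16.2 TPM in the treated libraries. Treated replicate 1 was just above the control range, treated replicate 2 inside it and the third treated library below it. The difference on the log2 scale was -0.11 (95% interval -0.55 to 0.33, limma Benjamini-Hochberg adjusted p = 0.737). Its sign depended on the scaling, with 0.10 (SE 0.08, adjusted p = 0.42) after rescaling, where Acat1 read 31.9 to 33.0 TPM in control and 33.4 to 35.8 TPM in treated libraries. The rescaled groups did not overlap, and every treated library was above every control library for 15.4% of all genes on that basis. Set against the other enzymes within a library, the ratio of Oxct1 to Acat1 was 3.29 to 4.04 in control and 2.62 to 3.19 in treated libraries, without overlap. This ratio was chosen with the values known and was not tested, and ratios of genes at large were not compared.

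**Figure D2:**
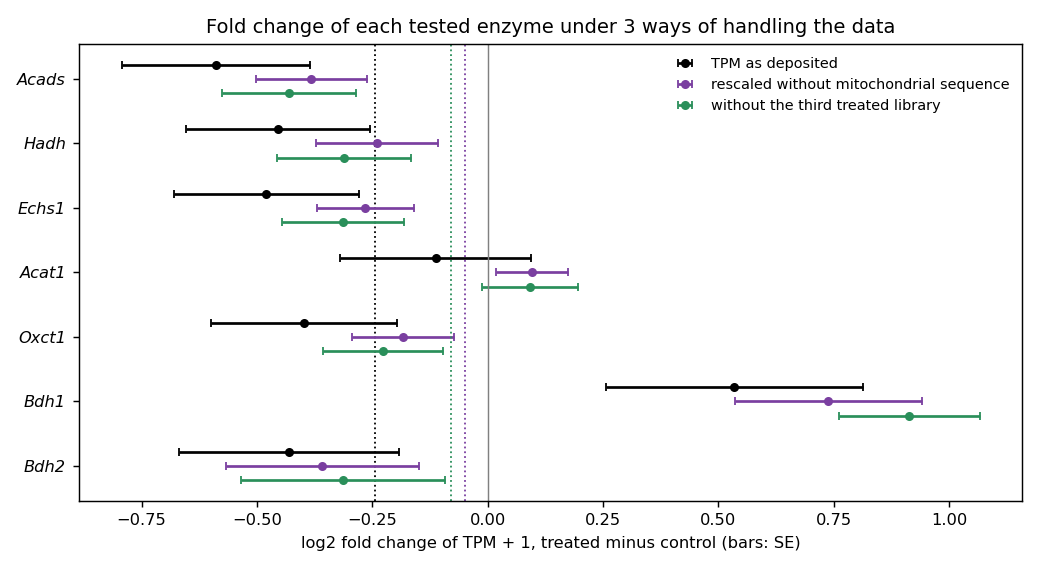
Log2 fold change of TPM + 1, treated minus control, for the 7 tested enzymes with SE bars, from TPM as deposited, after rescaling without mitochondrial sequence, and without the third treated library. Dotted lines mark the median of all genes tested in each fit (-0.24, -0.05 and -0.08); Bdh1 lies right of 0 in all 3 and Acat1 changes side.

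Bdh1, the mitochondrial 3-hydroxybutyrate dehydrogenase, went the other way in 2 of 3 treated libraries. It read 3.56, 3.46, 3.44 and 4.12 TPM in control replicates 1 to 4 and 8.48 and 7.05 TPM in treated replicates 1 and 2, but 2.97 TPM in the third treated library. The first 2 treated libraries were above every control library and the third was below them all. Bdh1 had a log2 fold change of 0.53 (SE 0.28, 95% interval -0.06 to 1.13), with a limma Benjamini-Hochberg adjusted p of 0.209, and the gene was not called. After rescaling Bdh1 read 5.07, 4.61, 4.44 and 5.84 TPM in control replicates 1 to 4 and 11.8, 9.47 and 6.37 TPM in the treated libraries. All treated libraries were then above all control libraries, as for 15.4% of all genes on that basis. The rescaled log2 fold change was 0.74 (SE 0.20, limma Benjamini-Hochberg adjusted p = 0.0445), and Bdh1 was the 1 enzyme called higher, where 8.09% of all genes were.

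The call of Bdh1 changed with the handling of the data, and the cause was not tested. Bdh1 was called higher by limma with the third treated library left out (0.91, SE 0.15, Benjamini-Hochberg adjusted p = 0.0157). It was also called higher with median-of-ratios scaling (0.74, adjusted p = 0.0376), TMM scaling (0.76, adjusted p = 0.0362) and array weights (0.77, adjusted p = 0.00258). In the same order, these fits called 834, 1303, 1452 and 2246 of 14967 genes higher, against 643 as deposited. It was not called when the mitochondrially encoded genes alone were removed (0.64, adjusted p = 0.0999), and as deposited its value was 0.29 when treated replicate 1 was left out (adjusted p = 0.481). The rank of Bdh1 among the tested genes of a library does not depend on how that library is scaled. It was at the 20.61st to 24.47th percentile in control libraries and at the 38.06th, 34.07th and 25.51st in treated replicates 1 and 2 and the third treated library. T cell identity markers summed to 1265, 2870 and 676.8 TPM in the same 3 libraries, and their part in the values of Bdh1 was not tested.

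Bdh2, a cytosolic dehydrogenase also linked to siderophore synthesis, was expressed near the filter. It read 2.11, 2.23, 1.31 and 1.90 TPM in control replicates 1 to 4 and 1.63, 1.02 and 0.81 TPM in the treated libraries, and the groups overlapped. Its difference on the log2 scale was -0.43 (SE 0.24, limma Benjamini-Hochberg adjusted p = 0.233), and -0.36 (SE 0.21, adjusted p = 0.266) after rescaling. Among the settings run it was called lower with array weights alone (-0.48, limma Benjamini-Hochberg adjusted p = 0.0408). The ratio of Bdh1 to Bdh2 within a library was 1.55 to 2.63 in control and 3.67 to 6.91 in treated libraries, without overlap. The ratio of Bdh1 to Oxct1 likewise ran from 0.0357 to 0.0497 in control and from 0.0582 to 0.108 in treated libraries. Both ratios were chosen with the values known and were not tested. Ratios of genes at large were not compared, so how often such a gap arises is unknown.

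**Figure D3:**
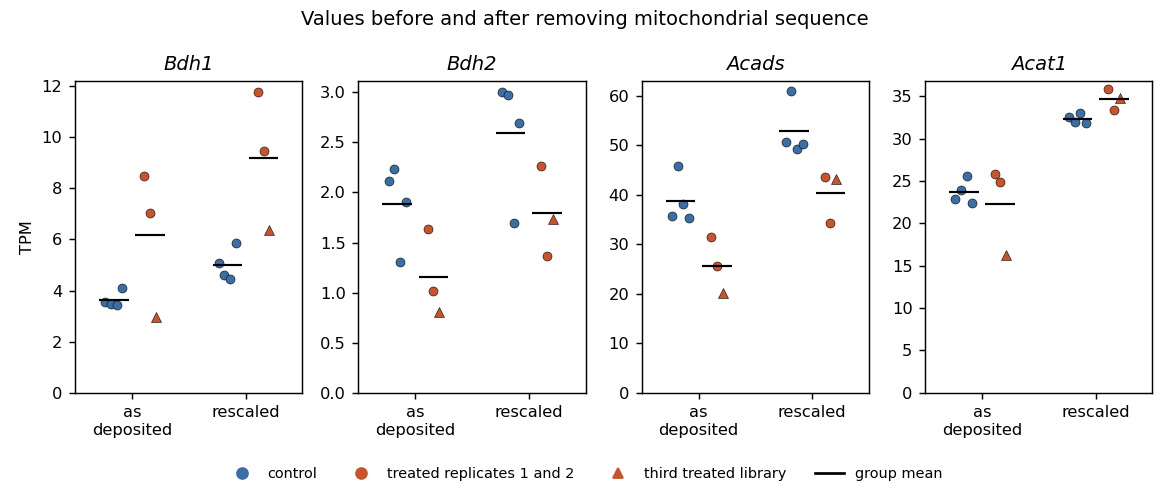
TPM of Bdh1, Bdh2, Acads and Acat1 in each library as deposited and after rescaling without mitochondrially encoded genes and 6 mitochondrial-like pseudogenes, with control in blue, treated in orange and group means as bars. The third treated library (triangle) moves most; for Bdh1 it goes from 2.97 TPM, below all controls, to 6.37 TPM, above all controls.

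The reads of the abundant enzymes were assigned mostly to 1 transcript row each. The highest row held 99.66% to 99.82% of the TPM of Hadh, 99.14% to 100% of Oxct1, 94.06% to 97.07% of Echs1, 79.75% to 90.91% of Acads and 78.39% to 86.66% of Acat1. Bdh1 was spread over 5 of its 7 rows, and its highest row held 23.94% to 46.24%. That row read 0.92 to 1.60 TPM in control libraries and 2.03, 3.05 and 0.88 TPM in the treated ones. The assignment jumped between rows, and the row second by mean was at 0 in 3 libraries. Another row, picked with its values known, read 0.34 TPM in control replicate 3 and 0 in the other control libraries, and 2.21, 1.72 and 0.91 TPM in the treated libraries. It stayed below the filter and was not tested. The table names rows by gene symbol only, so the isoforms behind them are unknown, and at these levels the split of reads between overlapping isoforms is uncertain. On the highest row alone the log2 fold change of Bdh1 was 0.31 (limma Benjamini-Hochberg adjusted p = 0.445). When every transcript row was fitted with limma, a fit added after the data were seen, 15 rows of the enzymes passed the filter and 0 were called. At an unadjusted p under 0.05 there were 4, from Acads, Hadh and Echs1, all lower in treated libraries, against 23.1% of all rows tested, or 16.7% counting lower ones alone. Of all 36715 rows tested, 1.71% were called higher and 1.96% lower.

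**Figure D4:**
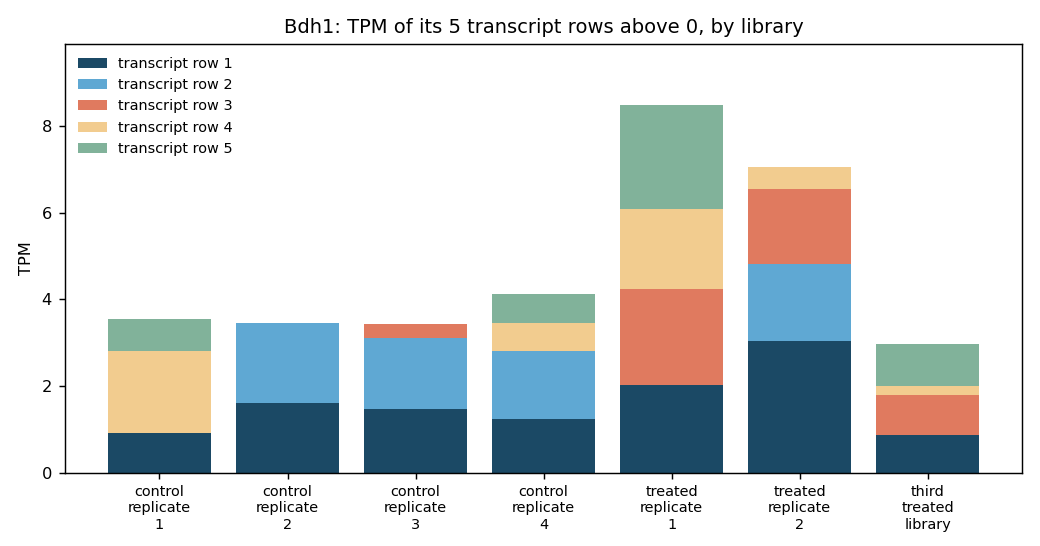
TPM of the 5 Bdh1 transcript rows above 0, stacked for each library and numbered by their mean. The total is 3.44 to 4.12 TPM in control libraries and 8.48, 7.05 and 2.97 TPM in the treated ones, and row 3 is present in all treated libraries and in 1 control library.

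Hadh and Echs1 were the most abundant of the enzymes with lower treated means, and Bdh1 had a higher one as deposited. Promoter sequences are shown for Hadh, Echs1 and the 2 annotated starts of Bdh1. They run from 250 bases before to 50 bases after the start, 5′ to 3′ on the gene's strand, in RefSeq's GRCm38.p6, whereas the submitters' processing notes name mm39. RefSeq's table matched 8 of the 9 genes, with 9 starts, all but Acat1. Capitals mark GC boxes, GGGCGG or its reverse complement on either strand.
Hadh, chr3:131272052-131272351, minus strand: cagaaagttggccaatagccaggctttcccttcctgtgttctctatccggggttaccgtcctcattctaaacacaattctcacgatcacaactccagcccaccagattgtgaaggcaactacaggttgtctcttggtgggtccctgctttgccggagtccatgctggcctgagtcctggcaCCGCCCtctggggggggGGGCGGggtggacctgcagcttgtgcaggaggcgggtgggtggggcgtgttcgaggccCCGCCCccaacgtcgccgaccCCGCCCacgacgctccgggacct
Echs1, chr7:140116372-140116671, minus strand: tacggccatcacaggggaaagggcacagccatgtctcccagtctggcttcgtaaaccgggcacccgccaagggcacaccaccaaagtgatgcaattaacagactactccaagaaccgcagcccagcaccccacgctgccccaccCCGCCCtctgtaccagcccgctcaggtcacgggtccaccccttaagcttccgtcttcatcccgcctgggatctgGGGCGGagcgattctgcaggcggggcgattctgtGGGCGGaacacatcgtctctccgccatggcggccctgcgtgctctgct
Bdh1 first start, chr16:31422047-31422346, plus strand: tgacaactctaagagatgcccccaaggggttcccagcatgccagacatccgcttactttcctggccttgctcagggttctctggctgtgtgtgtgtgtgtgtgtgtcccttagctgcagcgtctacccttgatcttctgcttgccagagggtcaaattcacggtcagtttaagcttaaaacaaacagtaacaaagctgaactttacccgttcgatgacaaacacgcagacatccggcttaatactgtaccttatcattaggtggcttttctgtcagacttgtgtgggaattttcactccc
Bdh1 second start, chr16:31428503-31428802, plus strand: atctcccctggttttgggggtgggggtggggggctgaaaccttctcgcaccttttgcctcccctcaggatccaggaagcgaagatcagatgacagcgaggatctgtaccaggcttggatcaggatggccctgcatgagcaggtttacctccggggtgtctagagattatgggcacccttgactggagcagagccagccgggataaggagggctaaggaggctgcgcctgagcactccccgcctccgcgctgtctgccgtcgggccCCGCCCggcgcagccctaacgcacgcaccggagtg
The Hadh window held 4 GC boxes and the Echs1 window 3, where 10.7% of all 32851 promoter windows held 3 or more. The first Bdh1 window held 0 and the second 1, and 35.7% of all windows held at least 1. The Acads window held 1, and those of Oxct1, Bdh2, Acsm3 and Acsm5 held 0. GC content was 63% for Hadh, 63.7% for Echs1, 48.3% and 63.7% for the 2 Bdh1 starts and 55.3% for Oxct1, against a median of 52.7% over all windows. The TATA box, TATAAA, was in 0 of the 9 windows and in 13.6% of all windows. Both strands were searched, and a match describes the letters only.

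The ACSM synthetases, the family named above for the first step of butyrate oxidation, were at or near 0. Acsm3, a family member known to act on butyrate, read 0.15, 0.23, 0.26 and 0.35 TPM in control replicates 1 to 4 and 0.48, 0.56 and 0.25 TPM in the treated libraries. Its groups overlapped as deposited. After rescaling they read 0.21 to 0.50 TPM and 0.54 to 0.75 TPM, but the gene stayed below the filter and was not tested. Acsm5, a medium-chain acyl-CoA synthetase, was listed at 0 in 7 of 7 libraries over all 7 of its rows. Of the other synthetases fixed for comparison, Acsm1, Acsm2 and Acsm4 reached no more than 0.03, 0.03 and 0.04 TPM. These 3 were picked out with their values known. Not every acyl-CoA synthetase listed was this low. Acsf2 read 66.47 to 81.29 TPM in control and 39.09 to 61.5 TPM in treated libraries. Acss2 read 13.82 to 17.6 and 12.04 to 19.54 TPM. Hepatocytes and kidney tubule cells carry much of the body's ACSM activity. Hepatocyte markers summed to 16.2 TPM in control replicate 2 and to 0 to 1.79 TPM in the other 6 libraries, and kidney proximal tubule markers to 0.12 to 0.21 TPM, with Slc22a6 and Kap at 0 in every library.

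Acss1, the mitochondrial synthetase that activates acetate, was the 1 gene called higher among 37 tested genes of the surrounding pathway. It read 1.91, 1.29, 2.33 and 2.37 TPM in control replicates 1 to 4 and 5.99, 10.57 and 3.40 TPM in the treated libraries. Every treated library was above every control library, as for 4.84% of all genes tested. Acss1 had a log2 fold change of 1.27 (SE 0.30, limma Benjamini-Hochberg adjusted p = 0.0144), and 1.53 after rescaling (adjusted p = 0.00951). Without treated replicate 2 the Acss1 call was lost, at 0.92 (limma Benjamini-Hochberg adjusted p = 0.0586), and a pseudocount of 5 gave 0.70. With no filter on low values the limma Benjamini-Hochberg adjusted p was 0.118 for Acss1, 0.0914 for Hsd17b10 and 0.0958 for Ppard, and none of the 3 was called. In the same list of 8 synthetases, 4 of which were tested, Acsf2 and Acss2 had log2 fold changes of -0.53 and 0.04 (limma Benjamini-Hochberg adjusted p = 0.0939 and 0.925), and -0.32 and 0.24 after rescaling.

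The pathway list around the 9 enzymes held 51 genes. Of the 37 tested, 1 was called higher and 2 lower, 2.7% and 5.41%, against 4.3% and 7.59% of all genes. Their median was -0.31, and 33 of 37 lay below 0. Over all genes tested the median was -0.24, and 73.4% lay below 0. Of 13 other genes of short and medium chain beta oxidation, 1 was called lower, Hsd17b10, a dehydrogenase of branched chains that is also part of mitochondrial RNase P. Hsd17b10 read 121.8 to 150.5 TPM in control and 66.4 to 98.1 TPM in treated libraries. This was -0.68 on the log2 scale (SE 0.20, limma Benjamini-Hochberg adjusted p = 0.0376). Rescaling gave -0.46 (adjusted p = 0.0242). Leaving out any 1 of control replicates 1 to 4 or treated replicate 2 ended its call, with limma Benjamini-Hochberg adjusted p from 0.0753 to 0.123, as did limma without a trend (0.0529). All 13 lay below 0 as deposited, with a median of -0.35. Among them Ech1, a dienoyl-CoA isomerase, stood at -0.58 (limma Benjamini-Hochberg adjusted p = 0.0748). Hadhb, the thiolase subunit of the trifunctional protein, stood at -0.20 (limma Benjamini-Hochberg adjusted p = 0.513). After rescaling they stood at -0.36 for Ech1 and 0.02 for Hadhb.

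Electrons from Acads pass to the electron transfer flavoprotein and on to the respiratory chain. Of 5 tested genes of this step 0 were called, with a median of -0.31 against -0.24 over all genes tested. Etfa and Etfb, the subunits of the flavoprotein, had log2 fold changes of -0.25 and -0.28 (limma Benjamini-Hochberg adjusted p = 0.391 and 0.369). Rescaling brought Etfa and Etfb to -0.04 and -0.07.

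The testis paralogues of Oxct1, Oxct2a and Oxct2b, read at most 0.07 TPM and 0 in all libraries. Both were picked out with their values known. Of the other genes that handle acetoacetyl-CoA in the cytosol, Hmgcs1, the synthase of the cholesterol route, was at -0.48 and Acat2, the cytosolic thiolase, at -0.03 (limma Benjamini-Hochberg adjusted p = 0.113 and 0.931). Rescaling brought Hmgcs1 to -0.27 and turned the sign of Acat2, to 0.17.

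Transport was read from 5 tested genes, 0 of which were called, with a median of -0.46 against -0.24 over all genes tested. Slc16a1, the monocarboxylate transporter that carries butyrate and ketone bodies, read 19.4 to 20.9 TPM in control and 10.7 to 15.8 TPM in treated libraries. Slc16a1 had a log2 fold change of -0.49 (SE 0.20, limma Benjamini-Hochberg adjusted p = 0.123), and -0.29 after rescaling (adjusted p = 0.0724). Bsg, the chaperone that brings this transporter to the membrane, was at -0.54 (limma Benjamini-Hochberg adjusted p = 0.104), and at -0.32 after rescaling. Slc5a8, the sodium-coupled butyrate carrier of colon, reached 0.26 TPM at most and was picked out with its values known.

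Of 9 regulators of fatty acid oxidation and ketogenesis, 6 were tested and 1 was called lower, Ppard, a nuclear receptor for fatty acids. Ppard read 12.3, 19.1, 15.4 and 12.9 TPM in control replicates 1 to 4 and 9.40, 7.73 and 5.97 TPM in the treated libraries. The groups did not overlap, and every treated library was below every control library for 25.7% of all genes tested. Ppard had a log2 fold change of -0.87 (SE 0.23, limma Benjamini-Hochberg adjusted p = 0.0238), and -0.69 after rescaling (adjusted p = 0.0234). The Ppard call was lost without control replicate 2 and without the third treated library (limma Benjamini-Hochberg adjusted p = 0.0766 and 0.0597), and on its highest transcript row (0.101). Esrra, which drives genes of oxidative metabolism, was at -0.60 (limma Benjamini-Hochberg adjusted p = 0.0594), and was called lower after rescaling (-0.40, adjusted p = 0.0219). Sirt3, the mitochondrial deacetylase of these enzymes, was at -0.17 (limma Benjamini-Hochberg adjusted p = 0.603), and at 0.04 after rescaling. Ppara, the receptor that drives ketogenesis in liver, stayed below the filter at no more than 0.42 TPM and was picked out with its values known.

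**Figure D5:**
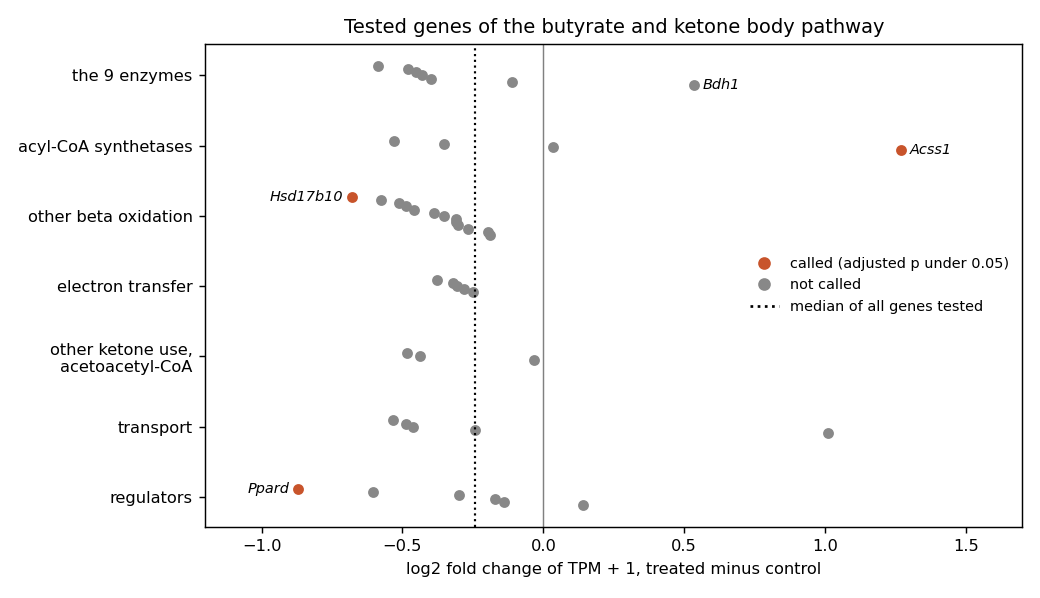
Log2 fold change of TPM + 1, treated minus control, for each tested gene of the 9 enzymes and of 6 surrounding lists, as deposited. Orange points were called (Acss1 higher, Hsd17b10 and Ppard lower), grey points were not, and the dotted line is the median of all genes tested, -0.24.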

How the data were processed

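RNA of 7 libraries, 4 control and 3 treated, had been sequenced after poly(A) selection with a stranded kit, per the labels' protocols. The authors deposited 1 table of TPM with 149132 transcript rows named by gene symbol. fastp, HISAT2, StringTie and mm39 are named in the submitters' processing notes, without roles. The program that made the TPM and its annotation are not given in the sources used here. Columns were matched by name, the third treated one by group only, and 0 other columns held values.

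TPM was summed per symbol, leaving out 1001 rows without one (0.307% to 0.618% of TPM). Genes at 1 TPM or more in at least 3 libraries were fitted as log2(TPM + 1) in R 4.3.3 with limma 3.58.1, with an intensity trend and Benjamini-Hochberg adjustment over 14967 genes. The fit was tested on simulated data. Alternatives changed the pseudocount, filter, scaling (median of ratios, TMM, and TPM without mitochondrial sequence), variance model, weights, transcript rows, replicate block and libraries. The rescaling that also removed 6 pseudogenes, the same without the third treated library, and a fit of every transcript row were added after the data were seen. Depth is unknown, so no counting interval could be given.

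The members and lists were chosen with earlier results of these data known. The text names all 9 enzymes, called genes of each list or else its most abundant, the 3 genes most like Echs1, the most abundant, as no enzyme was called, and others marked as picked with their values known. Some genes of the surrounding lists are not reported here.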

Additional observations from a re-analysis of the deposited data

Results flagged for a closer look

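Of the 44 tested enzymes and pathway genes, 4 had a control library far from the other 3, which chance gives in about 1 of 20 groups of 4 by the measure used (Dixon's ratio of gap to range above 0.829). Slc16a3, a lactate exporter, read 21.46 TPM in control replicate 3 against 5.09 to 7.85 TPM in the other control libraries. Slc16a7, a related transporter, read 5.15 TPM in the same library against 0.74 to 0.89 TPM. Ivd, which breaks down leucine, read 73.15 TPM in control replicate 1 against 63.18 to 63.73 TPM. Ech1 read 267.81 TPM in control replicate 2 against 210.86 to 219.86 TPM. None of the 7 tested enzymes was among the 4.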

How the results depend on the processing

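With TPM as deposited 643 genes were called higher and 1136 lower, with 0 and 0 of the 9 enzymes and 1 and 2 of the surrounding pathway genes. With no filter on low values (29687 genes tested) the counts were 3 and 4 for all genes and 0 and 0 for the pathway genes. Median-of-ratios and TMM scaling called 1303 and 1452 genes higher, with 1 enzyme higher in each, Bdh1. Rescaling without mitochondrially encoded genes called 1872 lower, with 1 enzyme, Acads, and 6 pathway genes lower. Rescaling that also removed the 6 pseudogenes called 1287 genes higher, Bdh1 among them as the 1 enzyme. Doing so without the third treated library called 712 lower and again 1 enzyme, Bdh1, higher. Array weights called 2246 higher and 4221 lower, with 1 and 5 enzymes and 3 and 18 pathway genes. Limma without a trend, and the highest transcript row, each called 1 pathway gene lower.

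Leaving out each library in turn gave 433 to 834 genes higher and 531 to 2910 lower. The enzymes called higher numbered 0 to 1 (Bdh1, without the third treated library), and those called lower 0 to 4 (Acads, Hadh, Echs1 and Oxct1, without treated replicate 1). Pathway genes called numbered 0 to 2 higher and 0 to 12 lower.

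The replicate numbers are not said to pair the samples, and same-numbered libraries did not deviate together (correlations across genes of -0.0195 and -0.0896). A fit with the replicate block, possible for numbers 1 and 2 only, called 138 genes lower and 0 pathway genes lower.

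The sign of Acat1 was the 1 direction among the enzymes that turned. It was positive with median-of-ratios scaling (0.15), TMM scaling (0.17), array weights (0.0784), the replicate block (0.11), after rescaling with the pseudogenes removed (0.0965) and after that rescaling without the third treated library (0.0930). Leaving out each library in turn gave Acat1 values from -0.227 to 0.0919, the latter without the third treated library. The median of all genes was -0.24 as deposited, -0.00 with median-of-ratios scaling, 0.01 with TMM scaling and -0.05 after rescaling with the pseudogenes removed. The cause of these differences was not tested.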

Other observations

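Slc16a6, a transporter linked to the export of ketone bodies from liver and chosen here after its values were seen, read 3.79, 1.75, 7.81 and 3.48 TPM in control replicates 1 to 4. It read 7.14, 13.6 and 6.50 TPM in treated replicates 1 and 2 and the third treated library. The groups overlapped through control replicate 3, the library that also stood apart for Slc16a3 and Slc16a7. Macrophage markers summed to 14890 TPM in that library and to 6186 to 7026 TPM in the other control libraries. Neutrophil markers summed to 424.5 TPM against 18.69 to 115.6 TPM, and the part of these cells was not tested. The log2 fold change of Slc16a6 was 1.01 (SE 0.34, limma Benjamini-Hochberg adjusted p = 0.0687), and 1.26 (SE 0.38, adjusted p = 0.0582) after rescaling without mitochondrial sequence.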
